A study of Mus musculus with 7 samples.

Results

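Axon guidance ligands and receptors are the secreted and membrane proteins by which growing axons and migrating cells read their surroundings. The set examined here was chosen by gene symbol and holds every protein-coding gene named Sema, Plxn, Epha, Ephb, Efna, Efnb, Robo, Ntn or Unc5 with any suffix, together with Nrp1, Nrp2, Slit1 to Slit3, Dcc and Neo1, which makes 74 of the 21883 protein-coding genes of the RefSeq annotation of mouse genome build GRCm38. They comprise 20 semaphorins, 11 plexins and neuropilins, 14 Eph receptors, 8 ephrins, 7 Slits and Robos, and 14 netrins and netrin receptors. The last group takes in Unc50 and Unc5cl, which match the symbol pattern but are not netrin receptors, and 72 members are left without them. ATAC-seq, an assay in which a transposase cuts accessible DNA and tags it for sequencing, was done on CD-1 mouse embryos. The cells were neural progenitors of the dorsal telencephalon, the part of the forebrain that forms the cortex, and were sorted for CD15, a carbohydrate epitope that marks such cells. The sample titles give the stage as E14.5, in the period of cortical neurogenesis, while the age label reads embryonic day 14. There were 3 wild-type libraries, which the study's design text calls control, and 4 libraries of genotype L3mbtl3 -/-, and neither group carried any other labelled allele or agent. L3mbtl3 encodes a chromatin protein with malignant brain tumour domains. The labels do not say which cells or stages lost the gene other than by that genotype, nor whether each library came from a separate embryo, so every p-value measures only the spread between these libraries, which may be technical. Heterozygous cells are mentioned in the growth protocol, but the genotype label of each library is one of these 2.

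Semaphorins act through plexin receptors, with neuropilins as co-receptors of the secreted class 3 semaphorins. Ephrins are bound to the cell surface and are read by Eph receptor tyrosine kinases. Slits are secreted repellents read by Robo receptors, and netrins attract through Dcc and Neo1 or repel through Unc5 receptors. In the developing cortex these families steer migrating neurons, the corticothalamic and callosal axons and the invading interneurons, and several of them are also made by progenitors.

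The deposited data were 1 list of broad peaks per library, with 7448, 11394 and 6458 peaks in wild-type libraries 1 to 3 and 9827, 7111, 3366 and 17362 in knockout libraries 1 to 4. Knockout library 4 had the longest list and knockout library 3 the shortest. No read counts were given, so the depth is unknown. A peak in a sorted population does not tell more open cells from more cutting per cell. Of 12 markers of radial glia and neural progenitors, 11 (91.7%, all genes 69.2%) had a peak in the locus (the gene with 50 kb added at each side), with 12 to 19 such peaks in a wild-type library and 9 to 39 in a knockout library. Of 3 intermediate progenitor markers 2 had a locus peak, and all 7 excitatory neuron markers did, with Fezf2 called at an end in 2 of 3 and 4 of 4 libraries; together these neuron markers had 2 to 8 peaks in a wild-type and 4 to 9 in a knockout library. The 4 endothelial markers together had 0 to 1 and 0 to 5 peaks, and the 5 microglial and blood markers 2 to 3 and 0 to 5, with none at a gene end. All 4 endothelial and 4 of the 5 microglial and blood markers had a locus peak in some library. The share with a locus peak therefore does not set the progenitor markers apart. At a gene end, 6 of the 12 progenitor markers (50%, all genes 23.6%) and 3 of the 7 neuron markers (42.9%) were called in some library. In at least 4 libraries, 0 of the 12 and 1 of the 7 were. Among 4 meningeal markers Dcn alone had peaks, 1 or 2 in every library, with an end call in knockout libraries 1 and 4. Of 6 ventral telencephalic markers Gad2 was called in every library while Gad1 and Gsx2 had none. Lhx6 was called in knockout libraries 1 and 2, and Dlx1 and Dlx2 in knockout library 4 alone. L3mbtl3 itself had 2 peaks in its locus over all libraries and none at its ends, so the peak lists do not check the deletion.

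The start of a gene was called open where a peak lay within 1 kb of it. The RefSeq promoter windows, from 250 bases before to 50 bases after the start, that most often held a peak belonged to Epha7, the receptor tyrosine kinase for A-class ephrins, called in 6 libraries, and Ephb3, a receptor for B-class ephrins, called in 4. The start of Ephb6 was also called in 4 libraries, but its promoter window held a peak in only 1. The window of Sema3c, a secreted semaphorin of cortical axons and migrating cells, was called in 3 libraries and is added because its calls fell in 1 genotype, a choice made after its values were seen. The sequences are from RefSeq, build GRCm38.p6, plus strand, written 5′ to 3′ and ending at the last base before the annotated gene span. They are shown because the calls at gene ends described next turn on these 3 places. Capitals mark matches to the motifs searched.

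Epha7 (chr4:28812881-28813065): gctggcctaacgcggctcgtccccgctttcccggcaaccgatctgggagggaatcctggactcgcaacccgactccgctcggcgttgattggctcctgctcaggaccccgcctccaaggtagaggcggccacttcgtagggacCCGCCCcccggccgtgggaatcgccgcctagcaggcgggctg
Ephb3 (chr16:21204545-21204619): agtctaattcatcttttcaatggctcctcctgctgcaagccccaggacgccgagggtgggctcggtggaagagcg
Sema3c (chr5:17574566-17574815): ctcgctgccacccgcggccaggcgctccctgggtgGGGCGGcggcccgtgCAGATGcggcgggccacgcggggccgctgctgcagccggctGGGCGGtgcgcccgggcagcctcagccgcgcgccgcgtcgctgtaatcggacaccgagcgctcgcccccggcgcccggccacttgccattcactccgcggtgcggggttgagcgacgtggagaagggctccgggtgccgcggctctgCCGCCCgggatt

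Over the 250 bases before the transcript start, of which only those outside the gene span are printed, GC content was 69.2% for Epha7, 65.6% for Ephb3 and 78.4% for Sema3c, and CG dinucleotides numbered 25, 16 and 39. The median was 64.4% GC and 15.5 CG dinucleotides over the 80 such windows of the 64 members in the promoter table, against 55.6% and 10 over 21262 windows of protein-coding genes. The motifs searched on both strands were the E-box CAGCTG, the proneural E-box CAGATG, the Sox core motif ACAAAG, the homeodomain core motif TAATTA, the Sp and Klf core motif GGGCGG, the promoter element TATAAA and the palindromic site of nuclear factor I, and matches of different motifs were allowed to overlap. GGGCGG occurred 3 times in the Sema3c window, 2 times in that of Ephb3 and once in that of Epha7. The Ephb3 matches to it lay in the stretch not printed. This motif is held by 32.7% of 32851 windows of this length. The E-box CAGATG occurred once for Sema3c and is held by 14.4% of windows. The E-box CAGCTG occurred once for Ephb3, in the stretch not printed, and is held by 13.0%. A match describes letters and not binding. The Sox motif, the homeodomain motif, the TATA element and the nuclear factor I palindrome, held by 16.5%, 4.84%, 12.4% and 0.0365% of windows, had no match in the 3 windows. The 300-base windows from 250 bases before to 50 bases after the start held a peak in any library for 15.0% of the members' windows and 19.7% of all.

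Calls at gene ends were few, and those that recurred were all at Eph receptors. At least 1 library had a peak no more than 1 kb from an end of the span for 16 of 74 members (21.6%), and the same held for 23.6% of all protein-coding genes. Only Epha7, Ephb3 and Ephb6 were called at an end in at least 4 libraries, 3 of 74 (4.05%) against 6.52% of all genes, and no member was called there in all 7, against 1.13%. The 16 comprised 5 semaphorins, 5 Eph receptors, 3 Slits and Robos, 1 plexin, 1 ephrin and Unc50, whose peak also lies at the neighbouring gene Coa5. The members therefore stood near the background of all genes or below it at their ends.

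**Figure D1:**
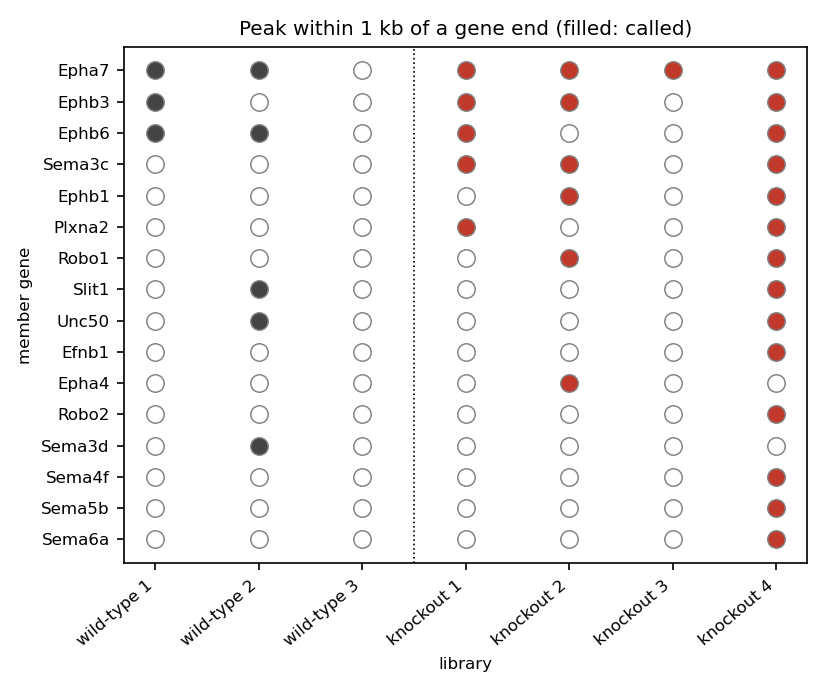
Calls within 1 kb of a gene end for the 16 members that had one, by library, with filled circles for a call (grey in wild-type, red in knockout). Epha7 is filled in 6 libraries, Sema3c in 3 knockout libraries and no wild-type library, and wild-type library 3 has no filled circle.

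Wild-type libraries 1 and 2 and all 4 knockout libraries called the Epha7 start (chr4:28812783-28813197). The authors' fold enrichment of these peaks over the peak caller's background was 4.32 to 4.83 in the lists that held them. Calls at the far end of Epha7 came from 2 of 3 and 2 of 4 libraries (chr4:28967585-28967945). The start of Ephb3 was called in 1 of 3 and 3 of 4 (chr16:21204398-21204810), and that of Ephb6, a kinase-defective Eph receptor, in 2 of 3 and 2 of 4 (chr6:41604430-41604605). The Sema3c start was called in 0 of 3 wild-type libraries and in knockout libraries 1, 2 and 4 (chr5:17574477-17574791), with folds of 4.37, 5.22 and 4.54. Knockout library 3, the shortest list, lacked it. The two-sided Fisher's exact test gave p = 0.143 for Sema3c and p = 0.429 for Epha7, and each adjusted p was 1 over the 5167 genes with an end call.

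The remaining end calls were rarer. Ephb1, a B-class receptor, and Robo1 were called at the start, and Plxna2, a semaphorin receptor, at the far end, each in no wild-type library and in 2 of the 4 knockout ones. Slit1 and Unc50 were called in 1 of 3 and 1 of 4. Sema3d was called in wild-type library 2 alone and Epha4 in knockout library 2 alone. Efnb1, Robo2, Sema4f, Sema5b and Sema6a were called at an end in knockout library 4 alone, the longest list. The count of members so called was 3, 5 and 0 in the wild-type and 5, 6, 1 and 14 in the knockout libraries, so the groups overlapped. The means were 2.67 ± 2.52 (SD, n = 3) and 6.5 ± 5.45 (SD, n = 4), a difference of 3.83, which fell to 1.33 without knockout library 4. The share of libraries with a call was larger in the knockout for 12 of the 16 (75%) and in the wild type for 4 (25%), where all genes gave 52.6% and 42.6%. Without knockout library 4, 11 members had an end call (14.9%, all genes 17.6%), 7 of them (63.6%, all genes 21.6%) with the larger share in the knockout and 4 (36.4%, all genes 52.3%) in the wild type. By either count 0 genes passed an adjusted p of 0.05 in Fisher's exact test, and 10 genes (0.194%), none a member, had an unadjusted p under 0.05. With all libraries an adjusted p that low would have needed most tested genes to reach the smallest possible p, 0.0286. Without knockout library 4 it was out of reach.

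Locus peaks were commoner than end calls, in the members as in all genes, and a locus is far wider than the end windows it contains. A peak in the locus was called in at least 1 library for 61 of 74 members (82.4%, all genes 69.2%), in at least 4 libraries for 30 (40.5%, all genes 28.3%) and in all 7 for 18 (24.3%, all genes 6.90%). These shares take no account of gene length, which is treated below. The 13 members without any peak were Epha8, Epha2, Efna4, Efnb3, Ntng2, Neo1, Ntn1, Unc5a, Nrp2, Sema6c, Sema3f, Sema3g and Sema4g. Among them are the founding netrin Ntn1 and the co-receptor Nrp2. Over all libraries the loci held 866 peaks, and the 10 members with most held 483 of them (55.8%).

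**Figure D2:**
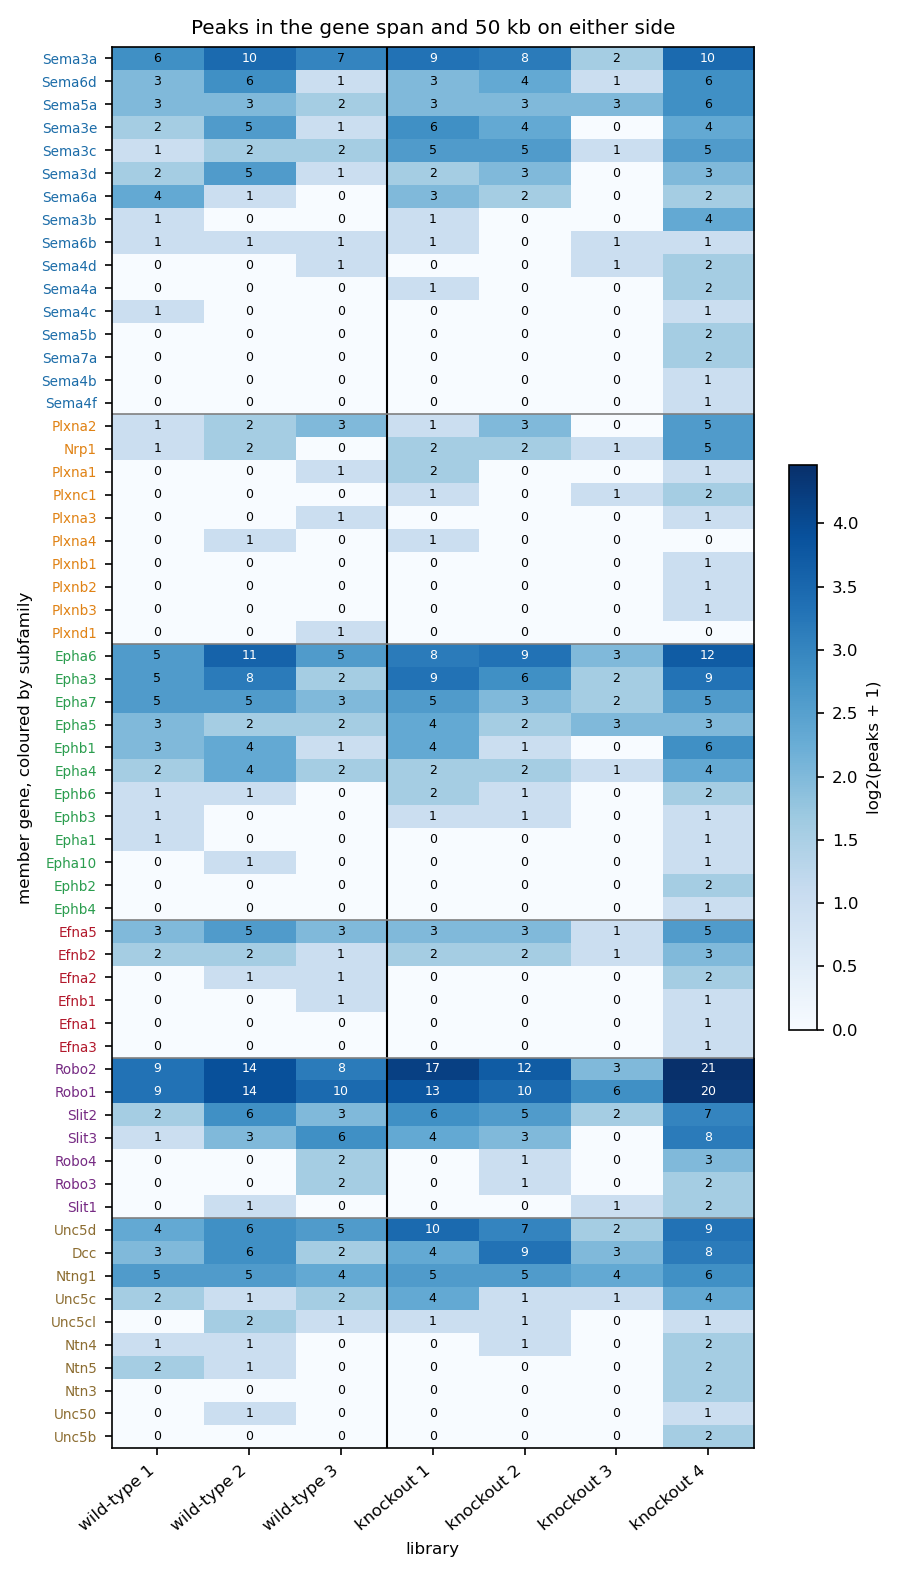
Peaks in the span and 50 kb on either side for the 61 members with any, one row per gene and one column per library, with the count printed in each cell and shaded on a log2 scale. Robo2 and Robo1 have the darkest rows, and knockout library 3 has the lowest or joint lowest count in most rows.

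The members were long genes: their spans reached 1555 kb and their median was 57.1 kb, against 17.2 kb for all genes. Among spans of 300 kb or more, the 16 members had 0.721 peaks per 100 kb of locus and library and the 540 other genes 0.429. Among spans of 100 to 300 kb the 18 members had 0.568 and the 1854 others 0.380. Below 20 kb the 22 members had 0.335 and the 11823 others 0.328. Between 20 and 100 kb the order turned, with 0.216 for 18 members and 0.349 for 7592 others. An end call was likewise rare in that class, in 1 of 18 members (5.56%) against 28.6% of the others, and it was commoner among members of 100 to 300 kb, 8 of 18 (44.4%) against 28.8%. Long members thus carried more peaks per length than other long genes, and members of middle length fewer. The share with a locus peak in at least 4 libraries also went both ways. It was 13.6% of members and 20.4% of others below 20 kb, and 11.1% and 30.8% between 20 and 100 kb. In spans of 100 to 300 kb it was 55.6% and 52.2%, and from 300 kb on 93.8% and 83%. These shares are descriptions, with no test over the chosen genes.

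**Figure D3:**
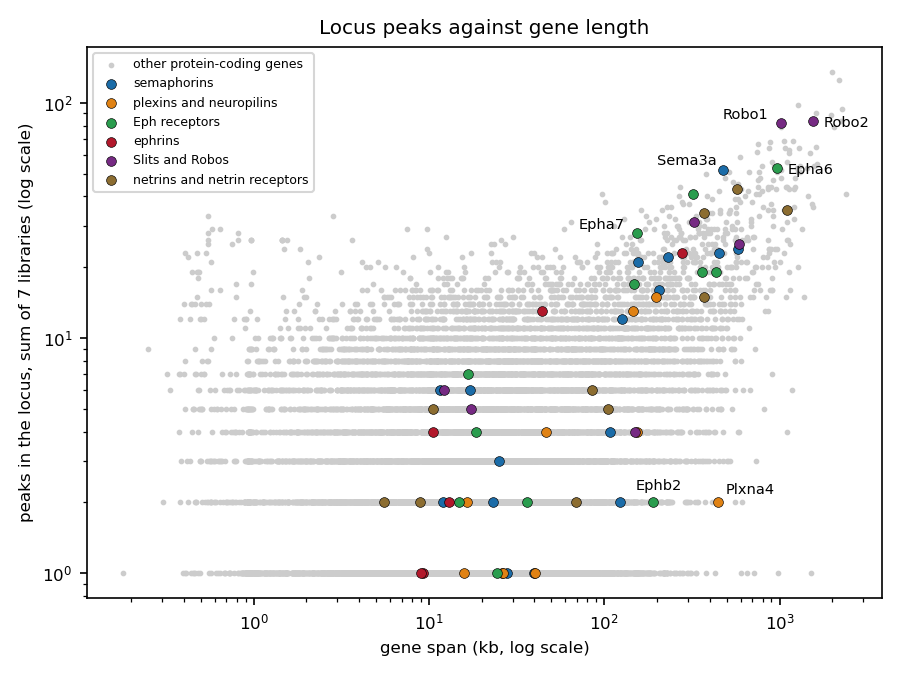
Peaks in the locus, summed over 7 libraries, against the length of the gene span, both on log scales, for all protein-coding genes with a peak (grey) and the members (coloured by subfamily). Robo1, Robo2, Sema3a and Epha6 sit near the top of the genes of their length, and Plxna4 and Ephb2 near the bottom with 2 peaks each.

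Robo1 and Robo2, the longest loci along with Dcc, held the most peaks, while per length several Eph receptors and semaphorins held more. Per 100 kb of locus and library Robo1 had 1.05 peaks, Slit2 1.04 and Robo2 0.725, against 1.57 for Epha7, 1.39 for Epha3, 1.29 for Efnb2, 1.28 for Sema3a and 1.17 for Sema3c. Robo2 had 9, 14 and 8 peaks in the wild-type and 17, 12, 3 and 21 in the knockout libraries. Robo1 had 9, 14 and 10, and 13, 10, 6 and 20. Both receptors had peaks in every list, fewest in knockout library 3 and most in knockout library 4, and their groups overlapped. Slit2, a secreted repellent that binds both, had 2, 6 and 3, and 6, 5, 2 and 7. Slit3 had 25 peaks in all and Slit1 had 4. Robo3 and Robo4, whose loci overlap, had 5 and 6. The 7 members had 84 regions, of which 27 were called in at least 4 libraries, here named recurrent, and 7 in all libraries. Robo1 and Robo2 had 10 recurrent regions each, Slit2 had 5 and Slit3 had 2. Of the Robo1 regions called in all 7 libraries, that with the highest mean rank within the lists lay in the span, 672 kb from the start (chr16:72699155-72699756), and its fold was 6.33, 6.10 and 5.55 in wild-type and 6.14, 6.08, 4.91 and 6.42 in knockout libraries. A second lay 483 kb from the start (chr16:72510608-72511248, fold 4.26 to 5.95). In Robo2 the leading region by the same measure lay 941 kb from the start (chr16:74506404-74506870, fold 4.37 to 6.11). Its peaks shared only 34 of its 467 bases. All 3 regions were called in every library of both genotypes.

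Eph receptors ranged from Epha6 with 53 peaks over all libraries to Epha2 and Epha8 with none. Epha6 had 5, 11 and 5 peaks in wild-type and 8, 9, 3 and 12 in knockout libraries, and Epha3 had 5, 8 and 2, and 9, 6, 2 and 9. Epha7 had 5, 5 and 3, and 5, 3, 2 and 5, a range of 2 to 5 over lists of very unequal length. Epha4, which binds ephrins of both classes, had 2, 4 and 2, and 2, 2, 1 and 4. Ephb1 had 3, 4 and 1, and 4, 1, 0 and 6, a sum of 19 that equals that of Epha5. Ephb3 had 1, 0 and 0, and 1, 1, 0 and 1, and Ephb6 had 1, 1 and 0, and 2, 1, 0 and 2. Epha10, Epha1, Ephb2 and Ephb4 had 1 or 2 peaks each over all libraries. Of 69 regions, 24 were recurrent, with 6 in Epha3, 5 in Epha6, 4 in Epha7 and 3 in Epha5. The region with the highest mean rank among the members' regions described here lay in Epha6, 756 kb from the start (chr16:59854257-59854758). Its fold was 6.77, 6.28 and 5.84 in wild-type and 6.85, 7.51, 5.51 and 7.71 in knockout libraries, and on average 93.9% of each list ranked at or below it by q. A second Epha6 region (chr16:60175659-60175980, fold 4.33 to 7.64) and one in Epha5 (chr5:84281853-84282077, fold 4.73 to 6.15) were also called in every library. Their ligands had fewer regions, 17 in all with 4 recurrent. Efna5, the ephrin that patterns cortical areas and their thalamic input, had 3, 5 and 3, and 3, 3, 1 and 5 peaks, and Efnb2 had 2, 2 and 1, and 2, 2, 1 and 3. Efna2 had 0, 1 and 1, and 0, 0, 0 and 2. One Efnb2 region, 20.9 kb from the start (chr8:8640261-8640489), was called in every library with folds of 4.6 to 6.16. Its peaks shared only 16 of its 229 bases. A pair of Efna5 regions was called in 6 libraries each, 222 kb (chr17:62659486-62660132) and 274 kb from the start (chr17:62607449-62607893), and no base of the second was shared by all its peaks.

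Among the semaphorins Sema3a held the most peaks, 52 over all libraries, and Sema3f, Sema3g, Sema4g and Sema6c held none. Sema3a, a secreted repellent, had 6, 10 and 7 peaks in wild-type and 9, 8, 2 and 10 in knockout libraries. Sema6d, a transmembrane semaphorin, had 3, 6 and 1, and 3, 4, 1 and 6. Sema5a, whose thrombospondin repeats set it apart from class 3, had 3, 3 and 2, and 3, 3, 3 and 6. Sema3d had 2, 5 and 1, and 2, 3, 0 and 3. The 20 semaphorins had 75 regions, of which 22 were recurrent, 8 in Sema3a, 4 in Sema3e and 3 in Sema5a. A pair of Sema3a regions was called in every library, 346 kb from the start (chr5:13470233-13470983, fold 4.64 to 6.16) and 139 kb from it (chr5:13263168-13263666, fold 4.31 to 6.07), although the peaks of the first shared only 12 bases. Sema4 genes had few peaks, with Sema4d at 4, Sema4a at 3, Sema4c at 2, and Sema4b and Sema4f at 1.

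Their receptors had the fewest recurrent regions, 3 of 24 (12.5%). Plxna2 had 1, 2 and 3 peaks in wild-type and 1, 3, 0 and 5 in knockout libraries, and Nrp1, which binds Sema3a, had 1, 2 and 0, and 2, 2, 1 and 5. Plxna1 had 0, 0 and 1, and 2, 0, 0 and 1, and Plxnc1, the receptor of Sema7a, had 0, 0 and 0, and 1, 0, 1 and 2. No plexin but Plxna2 had more than 2 peaks in any library. The 3 recurrent regions were 2 downstream of Nrp1, 170 and 176 kb from the start (chr8:128528646-128529157 in 6 libraries and chr8:128534451-128534920 in 4), and 1 in Plxna2 (chr1:194746835-194747162 in 5).

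Among netrins and their receptors Unc5d, Dcc and Ntng1 held most of the peaks, 43, 35 and 34 of 149. Unc5d had 4, 6 and 5 peaks in wild-type and 10, 7, 2 and 9 in knockout libraries, and Dcc, the attractive netrin receptor, had 3, 6 and 2, and 4, 9, 3 and 8. Ntng1, a membrane-anchored netrin relative that does not bind Dcc, had 5, 5 and 4, and 5, 5, 4 and 6. Its count thus stayed between 4 and 6 in every list, the shortest included. Ntn5 had 2, 1 and 0, and 0, 0, 0 and 2. Recurrent regions numbered 16 of 57, with 6 in Unc5d, 5 in Ntng1 and 3 in Dcc. Ntng1 had a region called in every library inside the span, 139 kb from the start (chr3:110010493-110011185, fold 4.72 to 7), and another past its far end (chr3:109732409-109732722, fold 4.43 to 7.05). A Dcc region (chr18:71975407-71975931) was also called in every library, with folds of 4.37 to 7.05.

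**Figure D4:**
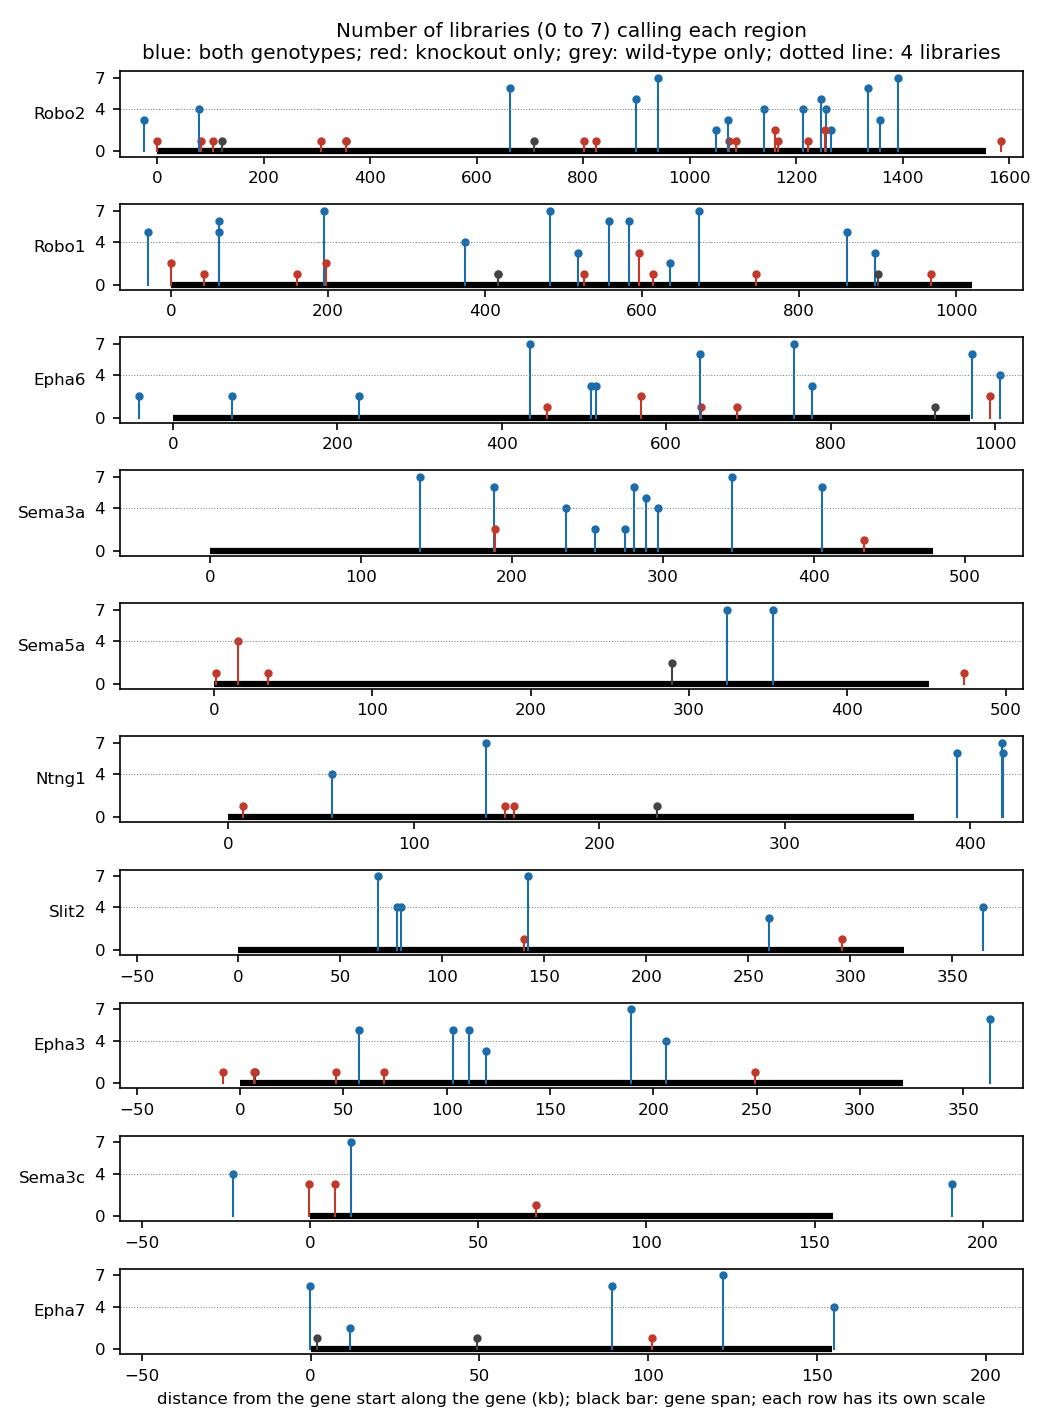
Each region of 10 members at its distance from the gene start in kb, with height the number of libraries that called it (0 to 7). Blue regions were called in both genotypes, red in knockout and grey in wild-type libraries only, and the tallest regions of Robo1, Robo2, Epha6 and Sema3a stand inside the span, far from the start.

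In sum the members' loci overlapped 326 of 25623 regions. Recurrent regions numbered 96 (29.4%, all regions 25.0%), and 22 were called in every library (6.75%, all regions 5.06%). A further 147 were called in a single library (45.1%, all regions 48.4%), 78 of them in knockout library 4. Of the 96 recurrent regions, 4 lay at a gene end, 78 in the span away from the ends and 14 in the flanks, and 29 members had at least 1. The end windows cover far less sequence than the spans and flanks, and this split was not taken over all genes. The lengths of the recurrent regions ran from 144 to 972 bases, and in 7 no base was shared by all the peaks. Position was taken only in the 20 members of at least 100 kb with known orientation and a recurrent region in the span. Each span was cut into 4 equal parts from start to end, and these held 13, 17, 24 and 12 of 66 recurrent regions. The third of these parts thus held 36.4%, where 669 other genes chosen in the same way had 25.4% of 1341. The regions were unevenly spread over members, with 10 recurrent regions each in the Robo1 and Robo2 loci and 8 in that of Sema3a.

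Between the genotypes the number of peaks in the members' loci overlapped, and the longest list held the most and the shortest the fewest. The loci held 95, 143 and 86 peaks in wild-type and 145, 119, 46 and 226 in knockout libraries, which is 108 ± 30.6 (SD, n = 3) and 134 ± 74.3 (SD, n = 4). Counted once for each member, the knockout mean was higher by 26.3 peaks, and without knockout library 4 it was lower, at −5. As a share of each list the loci held 1.28%, 1.26% and 1.33%, and 1.48%, 1.67%, 1.37% and 1.3%. Only knockout library 4 fell within the wild-type range by this measure. The mean was 1.29% ± 0.0397 (SD, n = 3) in wild-type and 1.45% ± 0.163 (SD, n = 4) in knockout libraries. No test was made of this sum over chosen genes.

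**Figure D5:**
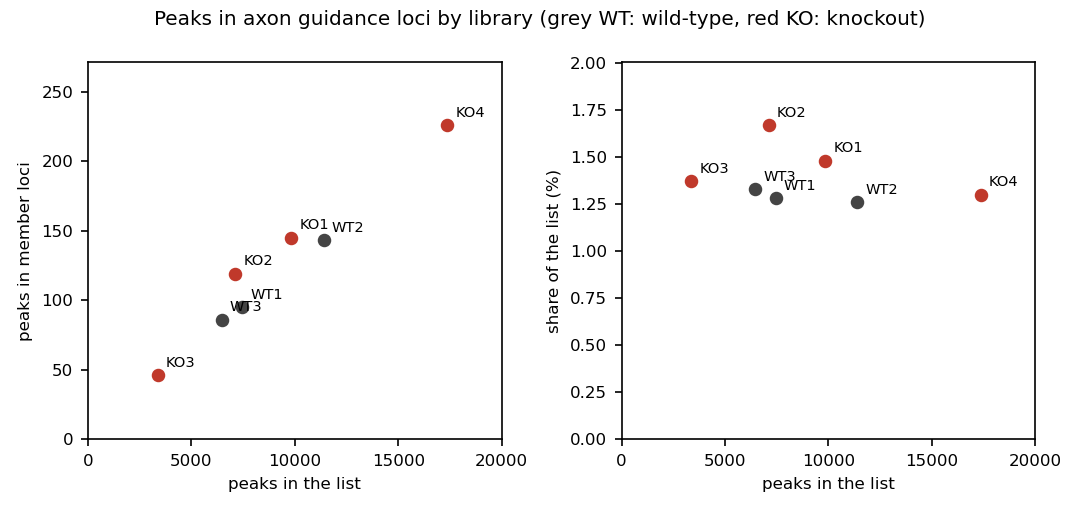
Left, peaks in the members' loci against the number of peaks in each library's list, and right, the same as a percent of the list (WT, wild-type, grey; KO, knockout, red). The longest list has the highest count and the shortest the lowest, and the share lies between 1.26% and 1.67%.

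By gene, 44 of the 61 members with a locus peak had a higher mean in knockout libraries (72.1%, all genes 58.6%). A further 17 had a higher mean in wild-type libraries (27.9%, all genes 37.8%). The comparison with all genes takes no account of gene length. Without knockout library 4 the split turned, with 16 of 48 higher in knockout (33.3%, all genes 21.9%), 25 higher in wild-type (52.1%, all genes 58.2%) and 7 equal. No member had all libraries of a genotype above all of the other, where 0.132% of genes did with knockout above and 0.211% with wild-type above. The two-sided exact permutation test over all 35 splits, whose smallest p is 0.0286, passed 0 of 15150 genes after Benjamini-Hochberg adjustment, and every adjusted p was 1. An adjusted p under 0.05 would have needed most of these genes to reach that smallest p. The 0 therefore does not show that the genotypes are alike. Before adjustment 50 genes (0.330%) had p under 0.05, none of them a member.

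Sema3c had the smallest p among the members, shared with Plxnc1. It had 1, 2 and 2 peaks in wild-type libraries and 5, 5, 1 and 5 in knockout libraries. The 3 knockout libraries at 5 lay above every wild-type library, and knockout library 3 lay at the low end of the wild-type range. The means were 1.67 ± 0.577 (SD, n = 3) and 4 ± 2 (SD, n = 4), a difference of 2.33 (exact permutation p = 0.143, adjusted p = 1). With each list cut to its 3366 best peaks the difference was 0.417, with peaks of −log10 q of at least 5 it was 0.75, and within the span alone it was 1. Besides the start, a region 7.47 kb into the gene (chr5:17582169-17582408) was called in knockout libraries 1, 2 and 4 alone, with folds of 4.49, 4.63 and 4.16. A region at −22.9 kb from the start, that is before it (chr5:17551795-17552008) was called in 1 of 3 and 3 of 4. The region 12.1 kb into the gene (chr5:17586670-17587132) was called in every library, with folds of 5.99, 5.62 and 6.06 in wild-type and 6.11, 5.20, 3.94 and 7.96 in knockout libraries. In knockout library 3 that peak ranked near the bottom of its list, where 1.96% of the list ranked at or below it. These 4 regions lay between −22.9 and 12.1 kb from the start. The locus held 2 further regions, at 67.3 kb in 0 of 3 and 1 of 4 libraries and at 191 kb in 1 of 3 and 2 of 4.

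The largest differences of mean locus peaks towards the knockout were those of Robo2 at 2.92 (exact permutation p = 0.6), Dcc and Sema3c at 2.33 each, Unc5d at 2 (p = 0.429 in the same permutation test), and Epha3 and Nrp1 at 1.5 each. Those towards the wild type were Efna5 and Sema3d at −0.667 each, Epha7 at −0.583, Ntn5 at −0.5, and Epha4 and Sema3a at −0.417 each. Each was smaller than the SD of its knockout libraries apart from Sema3c, whose knockout SD was 2. In each of these loci the ranges of the groups overlapped, and every adjusted p was 1.

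Regions called by genotype were rare. Of the members' 326 regions, 190 (58.3%, all regions 54.5%) had the larger share of calls in the knockout and 114 (35%, all regions 40.4%) in the wild type. Among the 96 recurrent regions the split was 39 (40.6%, all recurrent regions 37.5%) and 35 (36.5%, all recurrent regions 42.3%). One region was called in every knockout and no wild-type library, where 0.109% of all regions were, and none in every wild-type and no knockout library, where 0.133% were. It lay 15.0 kb into Sema5a (chr15:32259544-32260056), and its folds in knockout libraries 1 to 4 were 4.86, 4.77, 5.26 and 4.94. The 4 peaks shared 75 of its 513 bases. Fisher's exact test gave its smallest possible p of 0.0286, adjusted p = 1, and 62 of all regions (0.242%) had an unadjusted p under 0.05, which at this size only separated regions reach. With each list cut to the 3366 best peaks it was no longer separated.

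A second Sema5a region, 289 kb into the gene (chr15:32533668-32533961), had the opposite pattern, called in wild-type libraries 1 and 2 and in no knockout library, with folds of 4.32 and 5.17. A further pair, 324 and 353 kb into it (chr15:32568969-32569379 and chr15:32597223-32597501), was called in all 7. Within this gene calls in either direction thus occurred. In Sema6d a region 381 kb into the gene (chr2:124470319-124470798) was called in wild-type library 1 and every knockout library, and in Robo1 one at 596 kb (chr16:72622984-72623128) in 0 of 3 and 3 of 4. Towards the wild type stood a region of Epha4, 18.1 kb into the gene (chr1:77496893-77497108), called in 3 of 3 and 1 of 4, and one of Sema3d, 191 kb into the gene (chr5:12573694-12573831), called in 2 of 3 and 0 of 4. Each of these gave p = 0.143 in Fisher's exact test, with adjusted p = 1.

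Other genes of the pathway were taken from a list of 59 effectors and co-factors of axon guidance, such as cytoskeletal regulators, kinases, adhesion co-receptors and further secreted cues. Of these, 14 (23.7%, all genes 23.6%) had an end call and 5 (8.47%, all genes 6.52%) had one in at least 4 libraries. These 5 were Srgap2, a Slit-Robo GTPase-activating protein called in 3 of 3 and 4 of 4 libraries, Fyn and Rhoa in 2 of 3 and 4 of 4, Flrt3 in 3 of 3 and 3 of 4, and Cdk5 in 2 of 3 and 3 of 4. A locus peak was called for 49 (83.1%, all genes 69.2%). Among genes that are not members this share rose with length. It was 61% below 20 kb, 75% from 20 to 100 kb, 89.4% from 100 to 300 kb and 97.8% from 300 kb on. Of the 49, 38 (77.6%, all genes 58.6%) had a higher mean in knockout and 8 (16.3%, all genes 37.8%) in wild-type libraries. The means were equal for 3. Neither comparison with all genes takes account of gene length. Without knockout library 4 there were 16 of 41 (39%, all genes 21.9%) and 17 (41.5%, all genes 58.2%), with 8 equal. In the exact permutation test none had an adjusted or an unadjusted p under 0.05. The highest counts of locus peaks in single genes of the list were 38 for Nrcam, an adhesion co-receptor of neuropilin, and 30 for the Rac activator Vav3.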

How the data were processed

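ATAC-seq was done on 3 wild-type and 4 L3mbtl3 -/- libraries. The authors deposited 1 broad peak list per library with a fold enrichment (a ratio over background), a −log10 p and a −log10 q per peak. The smallest deposited −log10 q was 1.3 to 1.32 in the lists. The authors' score was not used. The submitters' processing notes name SAMtools 1.9, MACS2, FastQC 0.11.8, deepTools 3.3.0, CASAVA 1.9 and Bowtie2 2.3.5.1, and build GRCm38. How each was set, and whether reads were shifted for transposase binding, is not given in the sources used here.

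Altogether 62966 peaks were listed. Fold and q served only within a list, as a value or as a percentile. Gene spans came from RefSeq GRCm38.p6, and strand and promoters from its promoter table, which held 64 of the 74 members. Peaks overlapping by at least 1 bp were merged into 25623 regions. A region belonged to every member whose span and 50 kb flanks it overlapped. The lists differ in length, and counts were therefore also taken from lists cut to equal length. Per region and gene end a two-sided Fisher's exact test on libraries with and without a call was used, and per locus a two-sided exact permutation test of mean peaks, each with Benjamini-Hochberg adjustment over all features. These steps were tested on simulated data. Python 3.11.15, numpy 2.4.6, pandas 2.3.3, scipy 1.17.1 and matplotlib 3.10.9 were used.

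The members and lists were chosen with earlier results of these data known. Members were named with values if called at an end in at least 4 libraries, among the 3 with most locus peaks in a subfamily, among the 5 largest differences in a direction, or holding a region separated by genotype. The 3 regions called in most libraries per subfamily were described. Other regions and members given with values, such as those with Fisher p = 0.143, were picked after their values were seen. No 2 lists were copies, with 2 to 21 identical peaks in a pair. Alternatives were other windows, flanks, q limits, list lengths, merging rules and leaving out each library. The counts of direction without knockout library 4 were added after seeing the data.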

Additional observations from a re-analysis of the deposited data

Results flagged for a closer look

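Among the 4 knockout libraries, 7 of 44 values checked had 1 library far from the others, by Dixon's test of the gap over the range for 4 samples. The rate of about 1 in 20 by chance holds for independent values on a continuous scale. These values are small counts, partly of the same peaks, and where all other libraries tie any differing value passes. That rate is therefore no measure for them. Knockout library 3, the shortest list, called 8 recurrent semaphorin regions where the others called 20 to 22, and 6 recurrent regions of netrins and their receptors where the others called 15 to 16. It had 1 peak in the Sema3c locus where the others had 5 each, and 0 in the Ephb3 locus where the others had 1. Knockout library 4, the longest list, had 6 peaks in the Sema5a locus where the others had 3 each, and 2 in each of the Efna2 and Ntn5 loci where the others had 0. The part of list length in these values was not tested gene by gene.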

How the results depend on the processing

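The number of peaks in a list limits every count here. Of 100 alternatives to the main counts and tests, 87 left them within the limits used and 13 moved a count. These limits were wide. A difference counted as unmoved if it shifted by less than the pooled SD, 4.51 members with an end call or 61.4 locus peaks. The turn from 26.3 locus peaks to −5 without knockout library 4 thus counted as unmoved. Many of the 87 were counts past an adjusted p of 0.05, which stayed at 0 and could hardly move. With peaks of −log10 q of at least 5 only, 1 member had an end call, 3 regions were recurrent and 0 were separated by genotype. With each list cut to its best 3366 peaks these were 4, 26 and 0. When a call needed 50% of a region to be covered, 59 regions were recurrent and 0 separated. Regions called in all 7 libraries numbered 22. Leaving out each library in turn gave 11 to 16 members with an end call, 67 to 94 recurrent and 1 to 4 separated regions. The limit for a recurrent region stayed at 4 libraries. With fewer libraries the counts of end calls and recurrent regions could hardly rise, and that of separated regions could hardly fall. The separated regions numbered 2 without wild-type library 1, 3 without wild-type library 3, 4 without knockout library 3 and 2 without knockout library 4. The difference in members with an end call ran from 1.33 to 5.67 and that in locus peaks from −5 without knockout library 4 to 56 without knockout library 3. No gene or region passed an adjusted p of 0.05 under any alternative run. This could hardly have come out otherwise. Where all libraries are kept, most features would have to reach the smallest possible p of 0.0286. With a library left out the smallest possible p lies above 0.05. The counts of 0 therefore do not show that the genotypes are alike.

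Deviations of same-numbered libraries correlated at −0.0259, 0.0613 and 0.0603, where other pairs across the genotypes gave −0.124 to 0.095. Whether same-numbered libraries were prepared together was not tested. With a replicate block over numbers 1 to 3 the differences were 1.33 members with an end call and −5 locus peaks, and 0 genes passed, where the smallest possible p is 0.25.

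Of the 12 members named for their difference in locus peaks, knockout minus wild-type, several changed sign. At −log10 q of at least 5 the difference was −0.333 for Nrp1, 0.25 for Ntn5 and 0.167 for Sema3a. In lists of equal length it was 0.0833 for Efna5 and Epha4, 0.167 for Epha7, 0.25 for Ntn5, −0.583 for Robo2 and 0.417 for Sema3d. Leaving out single libraries moved it between −1 and 0.25 for Epha4, −1.33 and 1.33 for Sema3a, and −1.5 and 0.5 for Sema3d. For Sema3c it was 2 to 3.33 with single libraries left out, 0.417 in lists of equal length, 0.75 at −log10 q of at least 5 and 1 in the span alone. The causes were not tested.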
